A study of Homo sapiens with 6 samples.

Results

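The small nuclear RNA (snRNA) genes described here are the 41 genes of biotype snRNA on chromosomes 1 to 22 and X whose symbols start with RNU or RNVU, of 58419 genes in the RefSeq table used (GRCh38). They were chosen by biotype and symbol, not by any measured value. They comprise 4 U1 genes, 17 RNVU copies (variant U1 genes), 3 U2, 2 U4, 5 U5 and 5 U6 genes, and 1 gene each for U11, U12, U4atac and U6atac. The symbol rule also takes RNU7-1, the gene of U7, which is not part of the spliceosome. On chromosome 1 lay 25 of the 41 genes, and the 41 genes formed 39 separate loci, because RNU4-1 with RNU4-2 and RNU6-7 with RNU6-8 lie close together.

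R-loops, in which an RNA strand pairs with DNA and displaces the other DNA strand, were mapped in IMR90, a line of human embryonic lung fibroblasts of wild-type genotype kept at 2% oxygen. The assay was MapR, in which micrococcal nuclease tethered to RNase H cuts around RNA-DNA hybrids. Proliferating cells carried a control vector, senescent cells expressed Ras ectopically, and quiescent cells were starved. Neither the Ras construct nor a vector for the quiescent cells is named in the labels. Each state had 1 RNase H library and 1 library of the enzyme without RNase H (GST); the peak lists of the 3 RNase H libraries were used and the GST libraries are not analysed here.

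The proliferating list held 101802 peaks over 85.4 Mb, the senescent list 85564 over 54.1 Mb and the quiescent list 9736 over 4.12 Mb. With 1 library per state there is no replicate check and no test between states; every difference below is between single libraries, and read depth is unknown. Each peak carries the authors' score, whose scale is not stated. A score is therefore read as a percentile within its own list, the percentage of that list's peaks with a lower score, with tied peaks counted at their middle rank.

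The spliceosome removes introns with particles built around snRNAs. U1 pairs with the start of the intron and U2 with the branch point, and U4, U5 and U6 join as a pre-assembled unit. U11, U12, U4atac and U6atac do the same work, together with U5, for a rare class of introns, whereas U7 directs the cutting of histone transcripts. Most of these genes are short, intronless and transcribed by RNA polymerase II from a compact promoter with a distal and a proximal sequence element, and the Integrator complex cuts the transcript behind the gene. U6 and U6atac are transcribed by RNA polymerase III from a related promoter that holds a TATA box.

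The sequences at hand were those of RefSeq promoter windows of neighbouring genes (GRCh38, 300 bases each), of which 11 lay within 300 bp of 8 of the 41 genes. They were searched on both strands for the octamer ATTTGCAT or ATGCAAAT, a motif of distal sequence elements that the factor POU2F1 binds, for TATA, and for a PSE-like pattern (ACC, 7 or 8 bases, AAAG) modelled on the proximal element. Of 34961 promoter windows of the same length in the table, 1.77% held the octamer, 29.2% TATA and 6.4% the PSE-like pattern. Among the 8 snRNA genes the octamer lay near 3, TATA near 5 and the PSE-like pattern near 1. These are counts of genes, some with several windows, and are not on the scale of the shares per window. The stretches below show the letters that lay under peaks; each is printed toward the gene, with the matched letters in capitals.
RNU7-1 (chr12:6943773-6943878, + strand): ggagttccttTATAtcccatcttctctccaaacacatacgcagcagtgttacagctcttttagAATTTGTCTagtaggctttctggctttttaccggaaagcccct
RNU6-9 (chr19:893250-893437, + strand): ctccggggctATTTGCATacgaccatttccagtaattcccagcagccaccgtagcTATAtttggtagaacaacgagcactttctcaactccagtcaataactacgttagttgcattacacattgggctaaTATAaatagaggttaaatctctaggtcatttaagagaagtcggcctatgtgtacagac
RNU4-2 (chr12:120291939-120292142, - strand): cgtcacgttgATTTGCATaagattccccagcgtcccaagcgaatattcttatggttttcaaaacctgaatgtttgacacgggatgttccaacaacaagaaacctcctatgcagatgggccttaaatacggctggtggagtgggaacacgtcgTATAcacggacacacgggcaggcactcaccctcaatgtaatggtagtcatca
RNU2-63P (chr2:88016548-88016773, - strand): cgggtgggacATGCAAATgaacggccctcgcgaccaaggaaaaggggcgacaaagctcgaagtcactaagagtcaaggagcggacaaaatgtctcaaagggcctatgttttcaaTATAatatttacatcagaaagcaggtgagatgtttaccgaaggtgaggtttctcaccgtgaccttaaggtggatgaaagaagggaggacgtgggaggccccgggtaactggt
RNVU1-2A (chr1:144551965-144552001, - strand): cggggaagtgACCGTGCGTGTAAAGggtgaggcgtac

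The RNU7-1 stretch holds the whole gene and the 43 bases before it. Its capitals mark TATA, 30 bp before the gene, and the letters AATTTGTCT inside it, the site where U7 takes up its Sm-type ring. Both lay under a proliferating and under a senescent peak. At RNU6-9 the octamer lay 217 bp and TATA 176 and 101 bp from the gene, also under a peak in both lists. The senescent peak stopped 83 bp short of the gene. The RNU6-9 stretch comes from the promoter window of MED16 and ends 47 bp from the gene. Nearer bases were not at hand, so a TATA closer to the gene could not be seen. At RNU4-2 and RNU2-63P the octamer lay 222 and 209 bp from the gene, and TATA 84 and 109 bp from it, under a proliferating peak only, and so did the PSE-like match 34 bp from RNVU1-2A. A match describes the letters and is not a measured binding site.

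A proliferating peak lay within 200 bp of 38 of the 41 snRNA genes (92.7%, 95% Wilson interval 80.6 to 97.5), a senescent peak near 15 (36.6%, 23.6 to 51.9) and a quiescent peak near none (0%, upper limit 8.57%). The intervals cover counting error only. Of all genes used, 46.3% had such a proliferating peak, 42.6% a senescent and 13.9% a quiescent one. Long genes catch more peaks, so the 8296 genes of at most 300 bp are the closer background, at 13.2%, 7.47% and 1.13%. The lower bounds of the snRNA intervals lay above the short-gene shares in proliferating and in senescent cells.

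All 15 snRNA genes with a senescent peak also had a proliferating one. The other 23 genes with a proliferating peak had none in senescent cells (56.1% of 41, interval 41 to 70.1). In the full lists no gene showed the reverse. Over all genes 6.85% had a proliferating and no senescent peak and 3.08% the reverse, and over short genes the shares were 7.05% and 1.28%. The share of genes occupied in proliferating cells that also had a senescent peak was near that of other short genes. It was 39.5% for the snRNA genes (25.6 to 55.3), against 46.8% of short genes and 85.2% of all genes. The short-gene value lies inside the snRNA interval.

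The senescent count rests on the window. Within 1000 bp 28 snRNA genes had a senescent peak and 40 a proliferating one, against 14.1% and 19.9% of short genes. With a peak over the gene itself the counts were 7 and 34, against 4.91% and 10.5%. With the same number of peaks in each list they were 1 and 10, against 1.22% and 3.18%. With the proliferating list cut by score until it covered as much as the senescent one, they were 15 and 30, against 7.47% and 8.93%. At that equal cover 17 snRNA genes (41.5%) had a proliferating and no senescent peak, against 3.89% of short genes. RNVU1-1 and RNVU1-8 then showed the reverse, so its absence above rests on the longer proliferating list. The quiescent 0 has to be read with the size of that list. When the other lists were shortened to its covered length, which left 2056 proliferating and 4003 senescent peaks, they held no peak at any snRNA gene either. The share of short genes reached by these shortened lists was not taken. These absences therefore say nothing particular about snRNA genes.

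**Figure D1:**
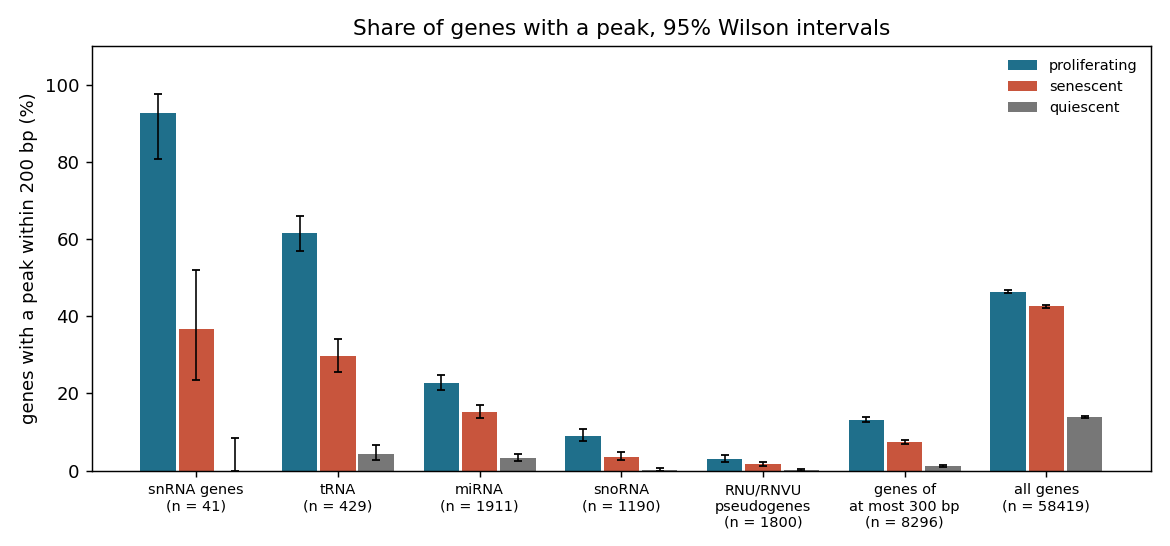
Share of genes (percent, bars) with a peak within 200 bp in each list, for the snRNA genes, other small RNA classes, RNU and RNVU pseudogenes, genes of at most 300 bp and all genes; lines are 95% Wilson intervals. The snRNA genes stand at 92.7% in the proliferating list, above tRNA genes at 61.5%, and at 36.6% in the senescent list, where tRNA genes are at 29.6%.

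The 4 U1 genes lie at separate loci on chromosome 1 between positions 16514122 and 16896143. Each lay wholly under a broad proliferating peak of 2207 to 2670 bp. RNU1-1 had a proliferating score of 34 (percentile 75.6) and a senescent score of 29 (86.6). RNU1-3 had scores of 65 (96.7) and 36 (95), the highest senescent rank among the snRNA genes. RNU1-4 had 64 (96.4) and 20 (56.8). RNU1-2 had a proliferating score of 56 (93.4) and no senescent peak within 200 bp, the nearest lying 255 bp away. The proliferating peaks were lopsided. They reached 1845 and 1488 bp to the left of RNU1-1 and RNU1-3 but 581 and 570 bp to the right, whereas at RNU1-4 and RNU1-2 the longer side was the right, with 1524 and 1720 bp against 519 and 786 bp. The gene table does not give strand, so these sides cannot be tied to the direction of transcription.

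In senescent cells the U1 peaks lay mostly beside the genes. At RNU1-1 the peak ended 2 bp before the gene. RNU1-3 was flanked by a peak on either side, with the gene itself uncovered, and RNU1-4 alone lay wholly under a senescent peak, of 1516 bp. U1 genes and their variants are near-identical in sequence, and the labels do not say how reads that match several copies were placed. Values of single U1, RNVU, U2 and U6 copies are therefore uncertain.

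Of the 17 RNVU copies, which encode variant U1 RNAs and lie on chromosome 1 between 120850819 and 149637013, 16 had a proliferating and 6 a senescent peak. Their proliferating percentiles ran from 21.4 to 95.8 with a median of 77.5, against a range of 75.6 to 96.7 in the 4 U1 genes. RNVU1-14 ranked highest, with a score of 62 (percentile 95.8). It was followed by RNVU1-27 with 47 (88.2) and by RNVU1-2A and RNVU1-3, both with 46 (87.5). At the low end were RNVU1-1 with 15 (21.4), RNVU1-26 with 16 (26.7), and RNVU1-4 and RNVU1-8, both with 19 (40.3).

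The 6 senescent peaks at RNVU copies were low in rank, at percentiles 8 to 61.5. RNVU1-14 had a senescent score of 21 (61.5), RNVU1-28 18 (45.9) and RNVU1-1 16 (33.7). RNVU1-3 had 14 (20.6), RNVU1-6 13 (14) and RNVU1-8 12 (8). RNVU1-1 was the only snRNA gene with more cover in senescent cells, where peaks took up 41.1% of the gene with 200 bp on each side, against 32.1% in proliferating cells. RNVU1-17 had no peak near it in any list: the nearest proliferating peak was 28472 bp away and the nearest senescent one 104836 bp.

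**Figure D2:**
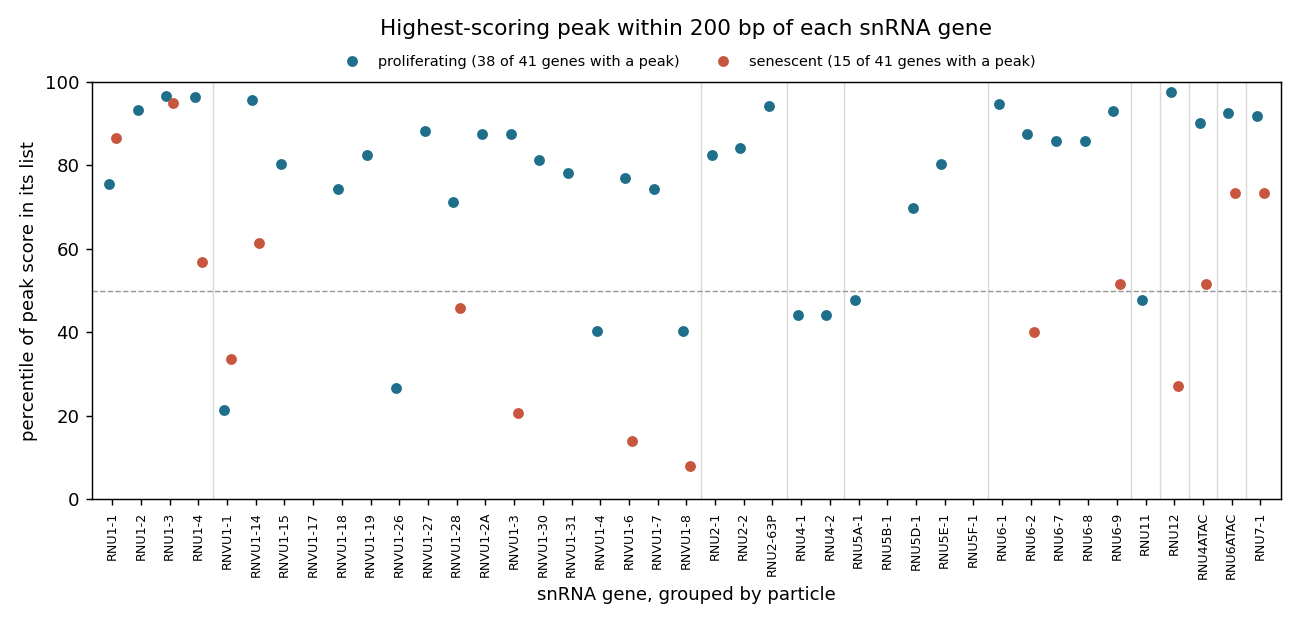
Percentile of the score of the highest peak within 200 bp, in its own list (vertical axis, percent), for each snRNA gene grouped by particle (horizontal axis); blue points are proliferating and red points senescent peaks, and the dashed line is the middle of the list. Proliferating points run from 21.4 to 97.6 with 30 of 38 above the line, and the 15 senescent points from 8 to 95.

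The 3 U2 genes were fully covered in proliferating cells and had no senescent peak within 200 bp. RNU2-1, on chromosome 17, had a proliferating score of 40 (percentile 82.4), RNU2-2, which lies inside WDR74 on chromosome 11, had 42 (84.2), and RNU2-63P on chromosome 2 had 58 (94.3). RNU2-63P carries a P for pseudogene in its symbol but has biotype snRNA in the table. Senescent peaks lay just outside the window, at 506, 431 and 253 bp. RNU2-1 is followed along chromosome 17 by 13 unnamed snRNA genes within 150000 bp, which are not among the 41. All 13 had a proliferating peak within 200 bp, and 1 had a senescent and 1 a quiescent peak.

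The U4 genes RNU4-1 and RNU4-2 shared 1 proliferating peak of 2637 bp on chromosome 12, with a score of 20 (percentile 44.2), so they are not independent. The nearest senescent peaks were 23727 and 25061 bp away. Of the 5 U5 genes 3 had a proliferating and none a senescent peak. RNU5E-1 had a proliferating score of 38 (80.3), RNU5D-1 30 (69.7) and RNU5A-1 21 (47.8), the last beside the gene. RNU5F-1 and RNU5B-1 had none within 200 bp, the nearest lying 568 and 314 bp away. No U4 or U5 peak ranked above percentile 80.3.

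All 5 U6 genes, which are transcribed by RNA polymerase III, had a proliferating peak. RNU6-1 had a score of 59 (percentile 94.7), RNU6-9 55 (93), RNU6-2 46 (87.5), and RNU6-7 and RNU6-8 shared a peak with 44 (85.9). The RNU6-2 peak was 6470 bp wide, the widest at any snRNA gene, and it also reached the end of TMEM259, a protein-coding gene 399 bp away. Only RNU6-9 and RNU6-2 had senescent peaks, with scores of 19 (51.5) and 17 (40), both to the left of the gene, 83 and 69 bp short of it. RN7SK, RMRP and RPPH1, which lie outside the symbol rule and are transcribed by RNA polymerase III from the same type of promoter, were fully covered in proliferating cells (percentiles 91.9, 87.5 and 96.9) and each had a senescent peak (88.4, 20.6 and 82.2). They were picked with earlier results of these data known.

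The minor spliceosome genes were occupied in both states except for RNU11. RNU12, on chromosome 22, had the highest proliferating score of all snRNA genes, 69 (percentile 97.6), and a senescent score of 15 (27.2). RNU4ATAC, inside CLASP1 on chromosome 2, had scores of 50 (90.2) and 19 (51.5), and RNU6ATAC on chromosome 9 had 54 (92.5) and 24 (73.4). RNU11 had a proliferating score of 21 (47.8) and no senescent peak within 200 bp, the nearest lying 318 bp away. RNU7-1, the U7 gene, had scores of 53 (91.9) and 24 (73.4) and lay wholly under both peaks, which were 3248 and 1536 bp wide. None of these 5 had a quiescent peak within 200 bp, but 4 of them had one a little farther out: RNU12 at 501 bp, RNU4ATAC at 567, RNU6ATAC at 640 and RNU7-1 at 782 bp. RNU2-1, at 602 bp, was the only other snRNA gene with a quiescent peak within 1000 bp, which makes 5 of 41 (12.2%), against 2.58% of genes of at most 300 bp. All 5 quiescent peaks overlapped the proliferating peak of the same gene, an overlap not counted over other genes. The median distance to a quiescent peak over the 41 genes was 55764 bp.

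Peaks took up on average 82.9% of an snRNA gene with 200 bp on each side in proliferating cells (SD over 41 genes 33.3), 18.3% in senescent cells (SD 30.7) and 0% in quiescent cells. Cover was lower in senescent cells at 34 genes, higher at 1 (RNVU1-1) and equal at 6, of which RNU1-4, RNVU1-3 and RNU7-1 were fully covered in both lists and RNU5F-1, RNVU1-17 and RNU5B-1 uncovered in both. The senescent mean was 0.22 of the proliferating mean, against 0.322 for tRNA genes, 0.448 for genes of at most 300 bp and 0.601 for all genes. Counts of genes with lower or higher cover were not taken over other short genes. Over all protein-coding genes, with 1000 bp on each side, cover was lower at 14370 of 19821 and higher at 2626. The whole senescent list covered 54.1 Mb, against 85.4 Mb in the proliferating list.

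The position of the peaks also differed between the lists. In proliferating cells 32 of the 38 occupied genes lay wholly under a peak, 2 in part (RNVU1-30 and RNU6-1), and 4 had the peak beside the gene (RNVU1-19, RNVU1-26, RNVU1-1 and RNU5A-1). In senescent cells 4 of 15 lay wholly under a peak, 3 in part (RNVU1-28, RNVU1-1 and RNU12), and 8 had the peak beside the gene. The share wholly covered was thus 84.2% in proliferating and 26.7% in senescent cells. It was 79.2% and 44.1% for occupied tRNA genes and 67.1% and 49.0% for occupied short genes. The median lengths over all genes of these 3 classes were 164, 73 and 104 bp. The part of gene length in these shares was not tested. Among the 15 genes with a senescent peak, mean cover went from 93.3% to 31.6% over the gene itself and from 96.3% to 56.8% over its flanks. These 15 were chosen by a senescent peak within 200 bp, and 8 of them qualified through a flank alone. The contrast of gene and flanks is therefore partly fixed by the choice.

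Senescent peaks at snRNA genes were narrower than proliferating ones. The 37 distinct proliferating peaks at snRNA genes had a median width of 1850 bp, and 45.9% were wider than 2000 bp, against 8.05% of the whole list. The 16 senescent peaks had a median width of 754.5 bp and none was over 2000 bp, against 2.55% of that list. At so low a list share, 16 peaks are too few to read the lack of wide ones. The median width over all peaks was 550 bp in the proliferating and 468 bp in the senescent list. Peaks at snRNA genes were thus wider than the list median in both. Of the 16, 14 lay wholly inside a proliferating peak. The exceptions were at RNVU1-1 and RNVU1-3, which were also the only snRNA genes with a wider peak in senescent cells. Such nesting was not counted for other senescent peaks, so it is not shown to be particular to these genes. The highest peak at a gene was narrower in senescent cells elsewhere too, with medians of 1599.5 and 780 bp at tRNA genes, 1378 and 749 bp at short genes and 1365 and 706 bp at all genes. The same medians over occupied snRNA genes were 1970 and 652 bp. The part of peak width in the lower counts was not tested.

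**Figure D3:**
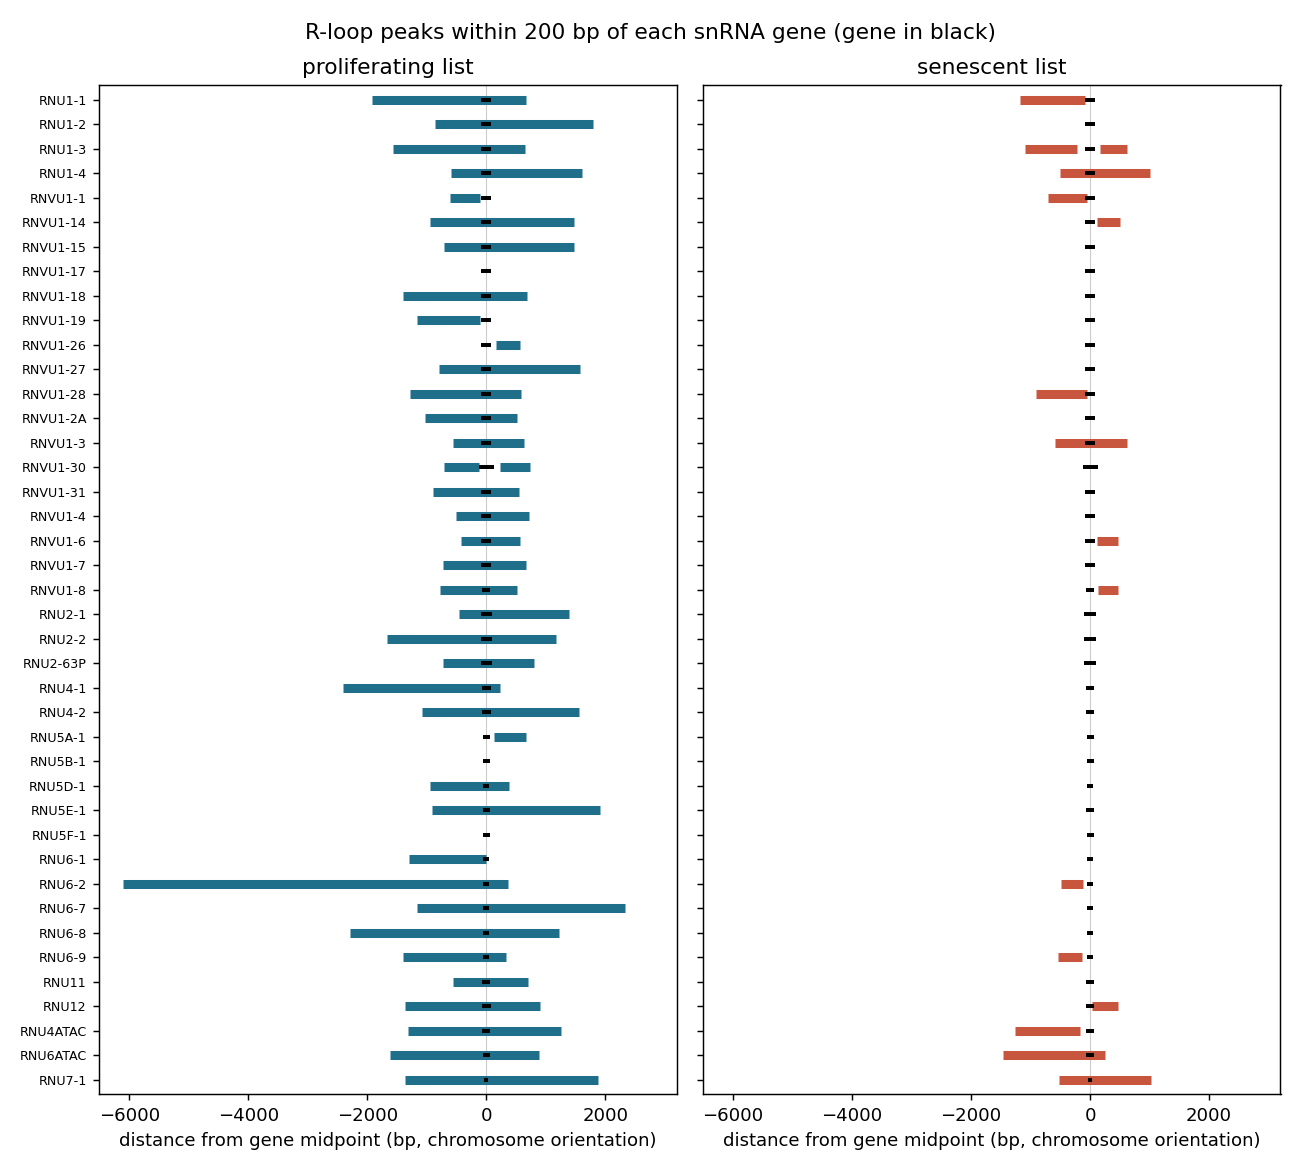
Extent of the peaks within 200 bp of each snRNA gene (rows), in the proliferating list (left, blue) and the senescent list (right, red), with distance from the middle of the gene in bp on the horizontal axis and the gene in black. Proliferating peaks span 32 of the genes from end to end, whereas the 16 senescent peaks are mostly shorter and 14 of them lie inside a proliferating one.

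Averaged over the genes, the senescent peaks left a dip at the gene. In proliferating cells 32 of 41 genes were covered at their middle, 36 at 300 bp to the left and 34 at 300 bp to the right. In senescent cells 4 were covered at the middle, 11 at 300 bp to the left and 8 at 300 bp to the right. tRNA genes had a shallower dip in senescent cells, with 15.4% of 429 covered at the middle, 18.9% at 300 bp to the left and 20% to the right. Their proliferating cover had no such dip, at 51.7%, 48.7% and 48%. Cover over the genes themselves carries the uncertainty of near-identical copies given above, and its part in the dip was not tested.

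**Figure D4:**
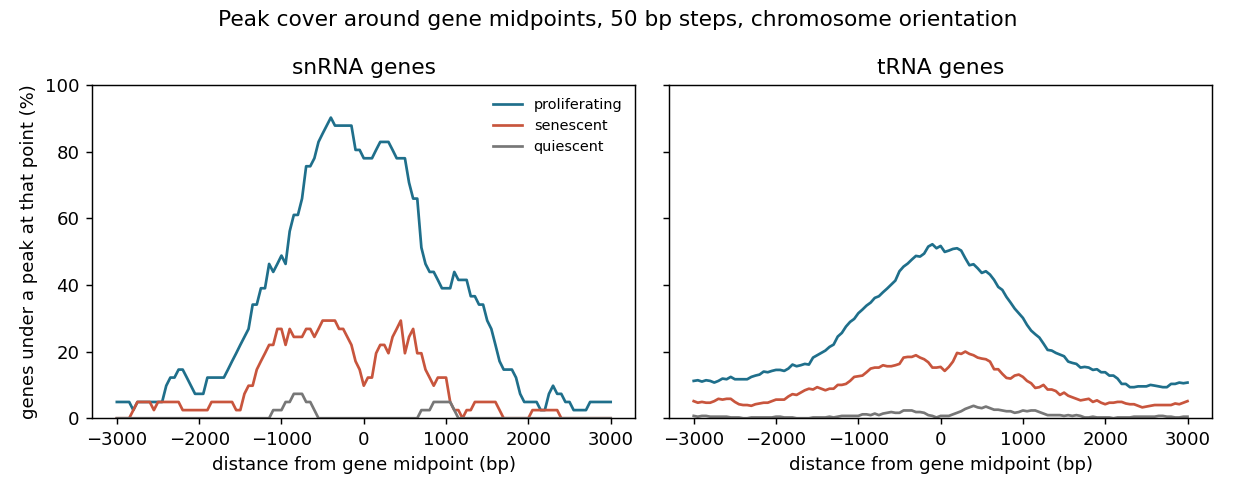
Percent of genes under a peak (vertical axis) at each distance from the middle of the gene in bp (horizontal axis, left to right along the chromosome), for the 41 snRNA genes and for 429 tRNA genes, in the 3 lists. At the middle of the snRNA genes 78% are covered in the proliferating list and 9.76% in the senescent list, and the senescent line is higher on both sides of the gene.

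Of the 26 snRNA genes without a senescent peak within 200 bp, 13 had one between 237 and 787 bp away, 4 to the left and 9 to the right. From 200 to 1000 bp the share with a senescent peak thus went from 36.6% to 68.3% of snRNA genes. Over genes of at most 300 bp it went from 7.47% to 14.1%. All 13 of these senescent peaks overlapped the proliferating peak of the same snRNA gene, an overlap not counted over other genes. These peaks lay at U1, RNVU, U2, U5, U6 and U11 genes, for example 237 bp from RNVU1-2A, 253 bp from RNU2-63P and 255 bp from RNU1-2. The remaining 13 of the 26 genes were more than 1000 bp from any senescent peak, among them both U4 genes.

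Senescent ranks were lower at most genes that had a peak in both lists. The median percentile was 82.4 over the 38 proliferating peaks and 51.5 over the 15 senescent ones. At 13 of the 15 genes with both, the senescent percentile was the lower, and it was the higher at RNU1-1 and RNVU1-1. In proliferating cells 11 snRNA genes had a peak above percentile 90 of the list, and in senescent cells RNU1-3 alone did. Other genes showed the same direction. The median percentile was 80.3 in proliferating and 65.9 in senescent cells at tRNA genes, 75.6 and 65.9 at genes of at most 300 bp, and 85.1 and 76.7 at all genes. Of the genes with a peak in both lists the senescent percentile was the lower at 91 of 119 tRNA genes (76.5%), 71.4% of short genes and 65.7% of all genes, against 86.7% of the 15 snRNA genes. Genes with a peak above percentile 90 made up 28.9% of occupied snRNA genes in proliferating and 6.67% in senescent cells, the latter 1 gene of 15. The shares were 25.2% and 13.7% of occupied short genes and 24.6% and 15% of occupied tRNA genes. Over all occupied genes they were 38.1% and 25.4%, above the snRNA shares in both lists.

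Some snRNA genes lie close to the end of a protein-coding gene. A protein-coding gene end lay within 1000 bp of 7 (RNU11, RNU2-2, RNU7-1, RNU4-2, RNU6-9, RNU6-2 and RNU12), of which 7 had a proliferating and 4 a senescent peak, with a mean cover of 100% and 27.8%. Of the other 34 snRNA genes 31 had a proliferating and 11 a senescent peak, and their mean cover was 79.4% and 16.3%. Mean cover was thus higher in both lists near a protein-coding gene end. The SD was 0 and 36.2 over the 7 genes and 35.7 and 29.7 over the other 34. These SDs are spreads over genes and do not give the error of the means. The part of the neighbours' own peaks was not tested.

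Non-functional copies showed little signal. Of 1800 pseudogenes with RNU or RNVU symbols, 3.06% had a proliferating peak within 200 bp, 1.61% a senescent and 0.0556% a quiescent one. Among other small RNA genes the shares were 61.5%, 29.6% and 4.2% for 429 tRNA genes, 22.8%, 15.2% and 3.3% for 1911 miRNA genes, and 9.08%, 3.61% and 0.168% for 1190 snoRNA genes, many of which lie in introns of other genes. The interval of the snRNA share in proliferating cells (80.6 to 97.5) lay above that of tRNA genes (56.9 to 66.0), whereas in senescent cells the intervals overlapped (23.6 to 51.9 and 25.5 to 34.1).

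The proteins that make and use snRNAs were described from 5 lists with 105 genes, by peaks within 1000 bp of either annotated end of the gene. A gene-end peak was present at 104 of them in the proliferating list, at 91 in the senescent and at 34 in the quiescent list. Over all 19821 protein-coding genes the shares were 75.9%, 70.3% and 27.7%. Of the 105 genes 13 had a proliferating and no senescent gene-end peak, none the reverse, and 8.12% of all protein-coding genes were of the first kind. The gene without a gene-end peak in any list was GEMIN4, a subunit of the SMN complex that loads Sm rings onto snRNAs.

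Promoter factors of snRNA genes had such peaks at 20 of 20 genes in the proliferating list, 18 in the senescent and 5 in the quiescent list. BDP1, a subunit of the polymerase III factor TFIIIB, had the highest proliferating score, 91 (percentile 99.6 in the proliferating, 51.5 in the senescent and 81.1 in the quiescent list). MEPCE, which caps 7SK RNA, followed with 72 (98.1, 84.6 and 46), and ZNF143, an activator that binds distal elements, with 61 (95.4, 27.2 and no quiescent peak). SNAPC2, ELL and GTF2A2 tied at 56, percentile 93.4. In senescent cells SNAPC2, a subunit of the complex on the proximal element, stood at percentile 94.3, the elongation factor gene ELL at 73.4, and GTF2A2, a subunit of TFIIA, at 14. SNAPC5 and LARP7, with proliferating scores of 52 and 40, had no senescent gene-end peak.

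Integrator and other genes listed for snRNA end formation had a peak at 18 of 18, 17 and 8. LARP4B was among the 18 and counts in all 3 peak lists, although nothing here ties it to this step. Proliferating percentiles were 98.9 at INTS14, 98.4 at INTS4 and INTS6, and 97.1 at INTS10, INTS3 and TOE1, which tied at a score of 67. In senescent cells INTS14 stood at percentile 76.7, INTS4 at 56.8, INTS6 at 91.2, INTS10 and TOE1 at 82.2, and INTS3 at 99.5. INTS3 thus ranked higher in the senescent list, whereas the other Integrator genes named here ranked lower. Quiescent percentiles ran from 10.2 at INTS3 to 96.5 at INTS6, and INTS1 lacked a senescent gene-end peak.

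Genes of snRNA export, cap change and Sm ring assembly had a peak at 19 of 20, 17 and 7. TGS1, which trimethylates the snRNA cap, stood at percentile 99.8 in proliferating and 92.4 in senescent cells, with no quiescent peak. XPO1, the export receptor, stood at 99, 45.9 and 90.1 in proliferating, senescent and quiescent cells. CLNS1A, which holds Sm proteins before assembly, stood at 98.6 and 33.7 with no quiescent peak, and GEMIN8, of the SMN complex, at 97.9, 65.9 and 27.9. RAN, the GTPase of nuclear transport, and COIL, the scaffold of Cajal bodies, had proliferating scores of 37 and 52 and no senescent gene-end peak.

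The Sm and LSm ring proteins had a peak at 14 of 14, 12 and 5. SNRPD2 and SNRPD3, of the Sm ring, stood at percentiles 96.9 and 96.1 in proliferating and 69.8 and 86.6 in senescent cells. LSM5 and LSM4, of the ring on U6, both stood at 95.4 in proliferating cells and at 84.6 and 94.3 in senescent cells. SNRPB and LSM3 had no senescent gene-end peak. Proteins of single particles had a peak at 33 of 33, 27 and 9. SF3A1, a U2 protein, had the highest proliferating score of the 105 genes, 125, and stood at percentile 89.8 in senescent and 98.7 in quiescent cells. PRPF4, of the U4/U6 particle, stood at 99.6, 88.4 and 61.1, SART1, of the tri-particle unit, at 99.5 and 65.9 with no quiescent peak, and SNRNP40, of U5, at 98.4, 84.6 and 51.3. Lacking a senescent gene-end peak were SNRPC of U1, PRPF3, SNU13 and SART3 of U4 and U6, and RNPC3 and SNRNP48 of the minor spliceosome.

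These genes were picked for their high proliferating score, so a lower senescent rank is partly fixed by the choice. Over all 91 pathway genes with a gene-end peak in both lists the senescent percentile was the lower at 73 and the higher at 18. Over all protein-coding genes it was the lower at 9577 of 13432 (71.3%, against 80.2% of the 91).

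Peaks covered on average 12.4% of these 105 genes with 1000 bp on each side in proliferating cells (SD 11.5) and 6.92% in senescent cells (SD 8.97), a ratio of 0.559. Over all protein-coding genes the means were 12.7% and 8.04%, a ratio of 0.634. Cover was lower in senescent cells at 100 of the 105 and higher at 5, and over all protein-coding genes it was lower at 14370 of 19821. The ratio of 0.22 at the snRNA genes themselves was taken over 200 bp on each side of short genes and is not on the same window.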

How the data were processed

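R-loops were mapped by MapR in 6 libraries of IMR90 cells, and the peak lists of the 3 RNase H libraries were used. Each deposited list gives a position and a score set by the authors. GRCh38 was the build, and MACS2 (2.2.7.1), Bowtie2 (2.4.5) and FastQC (0.11.9) are named per the submitters' processing notes. The labels do not state settings, read filters, the use of the GST libraries as controls or the scale of the score. Read depth is unknown, which limits every count of peaks.

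The gene table (RefSeq, GRCh38.p14) has 59792 entries, of which 58419 on chromosomes 1 to 22 and X were used; it holds no strand or exons. A planned description against the snRNA start was therefore replaced by left and right along the chromosome. A gene had a peak when at least 1 bp of a peak lay within 200 bp of it, and gene ends were given 1000 bp on each side. Shares carry 95% Wilson intervals. Python 3.11.15 with numpy 2.4.6, pandas 2.3.3, scipy 1.17.1 and matplotlib 3.10.9 was used, and the overlap code was tested on simulated data.

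Named genes were all members outside the U1 and RNVU groups, the 3 highest and 3 lowest proliferating ranks among U1 and RNVU copies (with ties), members without a proliferating peak or with a quiescent peak, and up to 4 pathway genes per list by proliferating score (ties named too); other genes were named after their values were seen. The members and lists were chosen with earlier results of these data known. Alternatives were other windows, a minimum score, equal numbers of peaks, equal covered length, no peaks over 20000 bp, copies within 5000 bp as 1 locus and no RNVU copies. A window of 500 bp and the covered length of the quiescent list were added after seeing the data.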

Additional observations from a re-analysis of the deposited data

How the results depend on the processing

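The proliferating share of 92.7% of snRNA genes with a peak became 97.6% with a window of 1000 bp, 73.2% both when peaks under the median score were dropped and at the covered length of senescent peaks, 24.4% with equal numbers of peaks and 0% at the covered length of the quiescent list. The senescent share of 36.6% became 17.1% over the gene itself, 58.5% within 500 bp, 68.3% within 1000 bp, 19.5% without peaks under the median score, 2.44% with equal numbers and 0% at the covered length of the quiescent list. The quiescent share of 0% became 12.2% within 1000 bp, with a mean cover of 1.83%. The share with a proliferating and no senescent peak, 56.1%, became 36.6% within 500 bp, 29.3% within 1000 bp, 22% with equal numbers and 0% at the covered length of the quiescent list. Mean proliferating cover of 82.9% became 23.1% with equal numbers. Mean senescent cover of 18.3% became 0.515% with equal numbers, 10.7% without peaks under the median score and 11.5% over the gene itself, all within its SD over genes of 30.7. The 39 values counted as unmoved, these 3 among them, moved by less than their interval or spread. They include all median ranks and all values without RNVU copies or with copies as 1 locus. For senescent cover the SD of 30.7 is larger than the mean of 18.3%, so no fall in it could count as moved. In no setting that gave peaks was a senescent share above the proliferating one. Short genes had 3.18% and 1.22% with equal numbers and 19.9% and 14.1% within 1000 bp. The cause of these shifts was not tested; the shortened lists hold fewer peaks by construction. No paired analysis was possible because each state has 1 library. With 1 library per state and unknown depth, differences between states are not separable from differences between libraries.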
